A study of Homo sapiens with 48 samples.

Results

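Messenger RNA of 10 genes that encode enzymes of purine and pyrimidine nucleotide synthesis was followed in a human fibroblast line and a melanoma line made senescent with doxorubicin. The genes are PRPS1, PRPS2, PPAT, GART, PAICS, ADSL, IMPDH2, CAD, DHODH and UMPS. They were chosen by name, by matching the Ensembl identifier of each row of the count table to its symbol, and all 10 were found among the 48898 genes counted. All 10 passed the filter on low counts in every comparison, with 50 to 33028 reads per gene and library.

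The data are 48 messenger RNA libraries in 16 groups of 3. The cells were IMR-90, fibroblasts grown from fetal lung, and the melanoma cells SK-MEL-103, and the study asked how loss of mitochondrial fusion proteins or of a mitochondrial adaptor changes senescent cells. In each line, cells that received doxorubicin at 200 nM for 48 h had been given an siRNA against MFN1, against MFN2, against both (siMFN1+2) or against MAVS 1 day earlier, or a negative control siRNA, and were harvested on day 7. Cells without doxorubicin that went on proliferating, also with the control siRNA, were harvested beside them. In a separate IMR-90 experiment, cells kept 7 days from the start of doxorubicin were treated for a further 48 h, either with 20 µM of MFI8, with 10 µM of BI or with DMSO as solvent, and were harvested on day 9 beside proliferating cells in DMSO. The mitofusins MFN1 and MFN2 are GTPases that fuse mitochondria at their outer membrane, where the signalling adaptor MAVS also sits. Per the labels MFI8 served as an inhibitor of mitofusins and BI as an activator, and the labels give only these code names. Doxorubicin is a topoisomerase II poison that damages DNA. Nothing in the labels says that the 3 libraries of a group came from separate cultures, so p-values measure the spread between these libraries, which may be technical.

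Cells make purine rings on a scaffold of phosphoribosyl pyrophosphate (PRPP), a sugar phosphate that is also joined to the pyrimidine ring and to salvaged bases. PRPP is made by the synthetases PRPS1 and PRPS2. PPAT commits PRPP to the purine pathway, the multifunctional enzymes GART and PAICS build most of the ring with ADSL, and IMPDH2 turns the product inosine monophosphate towards guanine nucleotides. In the pyrimidine pathway CAD carries out the opening reactions, DHODH in the inner mitochondrial membrane oxidises dihydroorotate to orotate, and UMPS makes uridine monophosphate from it. Demand for these nucleotides is high in dividing cells, which copy their genome and make ribosomes, and IMPDH2 and CAD are long known as genes of high expression in proliferating cells.

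PPAT and PAICS lie head to head on chromosome 4 and share the DNA between them. PRPS1 and PRPS2 are a pair of paralogs on chromosome X whose calls differed in IMR-90, though no test compared the paralogs with each other. The DNA just upstream of the starts of both pairs is shown for these reasons. Sequences are from RefSeq on GRCh38.p14, read on the + strand, and 8 of the 10 genes had an entry in the table of promoter windows (250 bases before to 50 after each start). ADSL and IMPDH2 had none. Capitals mark a GC box (GGGCGG, or CCGCCC on the + strand where the box lies on the other strand) or a CCAAT box. The PPAT-PAICS stretch is chr4:56435616-56435740, the PRPS1 stretch chrX:107628260-107628423 and the PRPS2 stretch chrX:12791162-12791354.
PPAT-PAICS: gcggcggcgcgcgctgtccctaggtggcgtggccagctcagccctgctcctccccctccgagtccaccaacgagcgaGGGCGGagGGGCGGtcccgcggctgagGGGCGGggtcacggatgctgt
PRPS1: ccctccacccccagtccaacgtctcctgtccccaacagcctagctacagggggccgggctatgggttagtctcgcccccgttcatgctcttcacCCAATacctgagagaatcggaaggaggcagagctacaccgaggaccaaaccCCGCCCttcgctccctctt
PRPS2: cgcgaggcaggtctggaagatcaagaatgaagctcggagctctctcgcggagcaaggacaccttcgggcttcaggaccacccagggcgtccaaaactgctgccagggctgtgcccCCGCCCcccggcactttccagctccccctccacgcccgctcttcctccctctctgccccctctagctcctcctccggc

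The PPAT-PAICS stretch is 125 bases long, 76.0% of them G or C, and holds 3 GC boxes that lie in the windows of both genes. The RefSeq starts of the pair are 136 bases apart and their windows overlap by 236 bases, so a motif found in both is not an independent match. Both windows also hold 1 copy of the E-box CACGTG, at chr4:56435792-56435797, outside the stretch shown. DHODH held the only other E-box among the members. Of 35116 windows of the same length over all genes, 7.26% held CACGTG, 44.95% held GGGCGG and 34.6% held CCAAT, on either strand. The 8 members have 12 windows, as some have more than 1 start. GC boxes were found in 8 of these windows, from 7 members. CCAAT boxes were found in 6 windows, from 4 members (PRPS1, GART, CAD and DHODH). The E2F motif TTTCCCGC (1.63% of all windows) was found in PRPS2, the E2F motif TTTGGCGC (0.652%) in GART, and the NRF1 motif (5.78%) in PAICS. Each of these was in 1 of the 12 windows, and those of PRPS2 and PAICS lie outside the stretches shown. The motif TGATGNAA of ATF4 (3.62%) was in none of the member windows. These are matches of letters in these windows, not measured binding sites.

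Positions of the genes are from GENCODE 29 on GRCh38. PRPS1 (ENSG00000147224) spans chrX:107628424-107651026 and PRPS2 (ENSG00000101911) spans chrX:12791355-12824222, both on the + strand. PPAT (ENSG00000128059) spans chr4:56393362-56435615 on the - strand and PAICS (ENSG00000128050) spans chr4:56435741-56464579 on the + strand. GART (ENSG00000159131) lies at chr21:33503931-33543491 on the - strand, ADSL (ENSG00000239900) at chr22:40346500-40390463 on the + strand and IMPDH2 (ENSG00000178035) at chr3:49024325-49029408 on the - strand. CAD (ENSG00000084774) lies at chr2:27217390-27243943, DHODH (ENSG00000102967) at chr16:72008588-72027664 and UMPS (ENSG00000114491) at chr3:124730366-124749273, all on the + strand. All are protein-coding genes. ADSL is uncertain as a measurement, because 1336 of the 4359 bases of its principal transcript (30.65%) are also exon of AL022238.4, a read-through gene on the same strand, and how reads shared by both were assigned is not stated. AL022238.4 held 0 to 16 counts per library, beside 95 to 1109 for ADSL, so few shared reads were counted for AL022238.4. Whether the others were counted for ADSL or left out is not known.

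Libraries held 15206115 to 79204217 counts, and depth followed the replicate number, with 15206115 to 31127306 counts in the libraries numbered 3. The siRNAs lowered their targets. In IMR-90, MFN1 was at 7.67 ± 0.350 CPM with siMFN1 and 51.4 ± 13.1 CPM with the control siRNA, MFN2 at 18.3 ± 1.72 with siMFN2 against 167 ± 12.9, and MAVS at 45.45 ± 5.35 with siMAVS against 129 ± 21.05 (SD, n = 3 each). In SK-MEL-103, MFN1 was at 17.23 ± 3.645 CPM with siMFN1 and 51.71 ± 3.075 CPM with the control siRNA. MFN2 was at 19.3 ± 0.715 CPM with siMFN2 against 94.86 ± 6.474, and MAVS at 61.25 ± 16.54 with siMAVS against 167.9 ± 7.479. CPM are counts scaled to a common library size with TMM factors, which correct for differences in composition, computed over all 48 libraries. Summed fibroblast markers (7 genes) ran from 5297 to 51130 CPM in IMR-90 and from 15.4 to 109.6 CPM in SK-MEL-103. Of the 7 melanocyte markers SOX10 was at 493 to 622 CPM (group means) in SK-MEL-103 and MITF at 7.58 to 10.3 CPM, while MLANA, PMEL, TYR, DCT and TYRP1 were at or near 0 (at most 1.62 CPM), so these pigment markers were absent from this line. MITF was higher in IMR-90, at 22.7 to 65.3 CPM. Markers of epithelium, endothelium and leukocytes summed to 45.2 to 128 CPM in SK-MEL-103 and 123 to 399 CPM in IMR-90, nearly all of it from KRT18 and KRT8.

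Levels of the members can be compared with each other only per length of exon. The length used is that of all annotated exons of a gene merged. For ADSL it is 7111 bases, beside 4359 in the principal transcript, so the order of the genes depends in part on the annotation. In group means, IMPDH2 was at 43.2 to 147 CPM per kb over the 16 groups, PRPS1 at 12.85 to 75.0 and PAICS at 6.54 to 58.9. IMPDH2 was above PRPS1 in every group except siMFN1+2 in IMR-90 (52.9 CPM per kb for IMPDH2 and 75.0 for PRPS1) and siMFN1 in IMR-90 (47.0 for IMPDH2 and 47.6 for PRPS1). PRPS2 was at 4.96 to 33.1, GART at 8.39 to 26.6 and CAD at 8.28 to 26.1 CPM per kb, ranges that overlap throughout. PPAT (1.69 to 10.8), UMPS (3.41 to 8.57), DHODH (0.576 to 3.08) and ADSL (0.911 to 2.42) were the lowest on this scale. The median coefficient of variation within groups ran from 9.20% for CAD to 25.25% for PPAT.

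Doxorubicin was first compared with proliferating cells in IMR-90 on day 7, both with the control siRNA. RNA of 8 of the 10 enzymes fell, PAICS the most, to a level 3.80-fold lower, while PRPS1 and ADSL did not pass the test. A gene is called at an adjusted p below 0.05 by edgeR's quasi-likelihood test with Benjamini-Hochberg adjustment over all genes tested. Over all 19077 genes 23.6% were called lower and 25.9% higher, so that 8 of 10 lower stands beside 23.6%. The groups of these 8 did not overlap, beside 27.2% of all genes lower and 28.5% higher without overlap. The median log2 fold change was -1.39 over the 10 genes and 0.09 over all genes tested. As these are bulk samples, fewer cells that express a gene and less of its RNA per cell cannot be told apart.

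Of the paralogs at the head of the pathway only PRPS2 was called, and the paralogs were not tested against each other. PRPS2 was at 14.35, 17.7 and 14.6 CPM in IMR-90 with doxorubicin, against 61.7, 38.2 and 60.85 CPM in proliferating IMR-90 (log2 fold change -1.75, SE 0.17, adjusted p = 1.77e-06, edgeR). Every doxorubicin library was below every proliferating one. PRPS1 was at 49.2, 101.5 and 49.5 CPM with doxorubicin, against 101.3, 71.2 and 89.5 CPM in proliferating cells (-0.36, SE 0.30, adjusted p = 0.34, edgeR). The second doxorubicin library lay above the others and overlapped the proliferating group, and without it PRPS1 was called lower (-0.79, adjusted p = 0.034).

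Along the purine pathway the head-to-head pair fell together. PPAT, the amidotransferase of the committed step, was at 17.1, 25.6 and 13.8 CPM with doxorubicin, against 62.4, 35.5 and 58.9 CPM in proliferating cells (-1.44, SE 0.37, adjusted p = 0.0049, edgeR). PAICS was at 105, 126.5 and 89.55 CPM with doxorubicin, against 484, 309 and 456 CPM in proliferating cells (-1.93, SE 0.22, adjusted p = 5.72e-06). In both genes the groups did not overlap, and the second proliferating library was the lowest of its group. GART was at 68.8, 100.8 and 45.6 CPM with doxorubicin, against 209.8, 121.5 and 189.8 CPM in proliferating cells (-1.24, SE 0.38, adjusted p = 0.015). Its groups came closest in the second libraries of both. IMPDH2 was at 120.8, 143 and 95.7 CPM with doxorubicin, against 369, 206 and 355 CPM in proliferating cells (-1.34, SE 0.26, adjusted p = 0.00061, edgeR), again without overlap. ADSL, the lyase of the pathway, was at 13.98, 13.5 and 7.75 CPM with doxorubicin, against 16.25, 8.12 and 13.2 CPM in proliferating cells, and the groups overlapped (-0.06, SE 0.36, adjusted p = 0.91).

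The pyrimidine genes fell as well. CAD was at 66.3, 76.8 and 66.15 CPM with doxorubicin, against 220.5, 166 and 207 CPM in proliferating cells (-1.47, SE 0.13, adjusted p = 8.06e-07, edgeR). DHODH was at 4.075, 5.32 and 3.63 CPM with doxorubicin, against 14.8, 9.06 and 14.8 CPM in proliferating cells (-1.53, SE 0.29, adjusted p = 0.00063). Neither gene overlapped between the groups. UMPS was at 24.8, 35.5 and 18.2 CPM with doxorubicin, against 62.2, 35.6 and 57.5 CPM in proliferating cells (-0.95, SE 0.34, adjusted p = 0.029, edgeR), so that the highest doxorubicin library and the lowest proliferating one were level.

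The call of GART was lost without the third doxorubicin library (adjusted p = 0.061) or the first proliferating one (0.054), and that of UMPS without the first (0.080) or the third (0.11) doxorubicin library or the first (0.099) or the third (0.074) proliferating one. In the labels, libraries of this experiment carry numbers 19 to 35 for replicates 1 and 2 (and the third of siMAVS) and 89 to 93 for the other libraries numbered 3, and what the numbers stand for is not stated. Within the earlier numbers the log2 ratio of group means was -0.97 for GART and -0.70 for UMPS, and within the later numbers, with 1 library per group, it was -2.06 and -1.66. For the other 6 genes called it ran from -1.12 (IMPDH2) to -1.77 (PAICS) in the earlier range and from -1.64 (CAD) to -2.35 (PAICS) in the later one. PRPS1 was at -0.20 and -0.85, and ADSL changed sign, at 0.17 and -0.77.

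**Figure D1:**
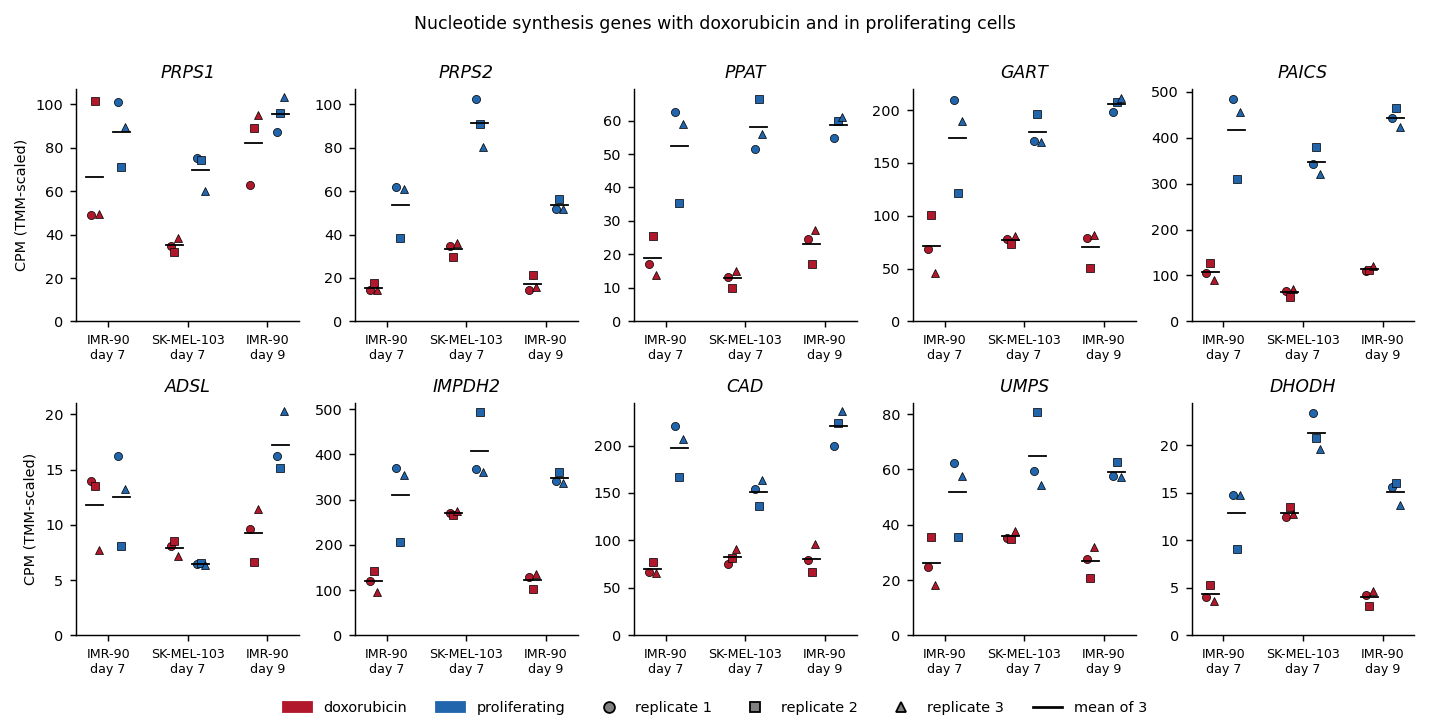
TMM-scaled CPM (vertical axis, linear from 0, a scale of its own for each gene) of the 10 genes in each library with doxorubicin (red) and in proliferating cells (blue), for IMR-90 on day 7, SK-MEL-103 on day 7 and IMR-90 on day 9. Marker shapes give the replicate number and black lines the mean of 3; the doxorubicin points lie below the proliferating ones in all 3 settings for PRPS2, PPAT, GART, PAICS, IMPDH2, CAD, UMPS and DHODH, but not for PRPS1 and ADSL.

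The same comparison in SK-MEL-103 gave 9 of 10 genes lower, PRPS1 among them, and none higher. Over all 17945 genes tested 29.9% were called lower and 29.4% higher, and the median log2 fold change was -1.03 over the 10 genes and 0.03 over all. No member overlapped between the groups, 9 of them lower with doxorubicin and ADSL higher, while over all genes tested 27.0% were lower and 35.7% higher without overlap. PAICS was at 67.15, 53.6 and 70.0 CPM in SK-MEL-103 with doxorubicin, against 343, 379 and 321 CPM in proliferating SK-MEL-103 (-2.55, SE 0.22, adjusted p = 4.27e-08, edgeR), a level 5.845-fold lower. PPAT was at 13.3, 10.1 and 15.2 CPM with doxorubicin, against 51.4, 66.6 and 56.1 CPM in proliferating cells (-2.27, SE 0.23, adjusted p = 2.63e-07). These were the deepest decreases among the members in either line.

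Both synthetases fell in the melanoma line. PRPS1 was at 34.98, 32.2 and 38.3 CPM with doxorubicin, against 75.4, 74.2 and 59.9 CPM in proliferating SK-MEL-103 (-1.09, SE 0.25, adjusted p = 0.0013, edgeR). PRPS2 was at 34.6, 29.5 and 35.9 CPM with doxorubicin, against 102.5, 91.0 and 80.2 CPM in proliferating cells (-1.55, SE 0.13, adjusted p = 2.76e-08). Spread within the groups was small, with an SD of 3.07 CPM for PRPS1 and 3.39 CPM for PRPS2 in the doxorubicin libraries.

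The other purine enzymes of SK-MEL-103 changed less than PPAT and PAICS. GART averaged 77.3 ± 3.77 CPM with doxorubicin and 179.3 ± 14.99 CPM in proliferating cells (-1.31, adjusted p = 8.66e-08, edgeR). IMPDH2 averaged 271 ± 4.64 CPM with doxorubicin and 407 ± 74.9 CPM in proliferating cells (-0.68, adjusted p = 3.40e-05), the smallest change called. ADSL was at 8.04, 8.55 and 7.15 CPM with doxorubicin, against 6.44, 6.59 and 6.39 CPM in proliferating cells, a difference of 0.20 on the log2 scale that did not pass the test (SE 0.12, adjusted p = 0.18). Among the pyrimidine genes CAD averaged 82.7 ± 7.72 CPM with doxorubicin and 151 ± 13.7 CPM in proliferating cells (-0.97, adjusted p = 2.21e-06). DHODH averaged 12.9 ± 0.558 CPM with doxorubicin and 21.3 ± 1.96 CPM in proliferating cells (-0.82, adjusted p = 5.47e-06). UMPS averaged 35.85 ± 1.61 CPM with doxorubicin and 65.0 ± 14.1 CPM in proliferating cells (-0.95, adjusted p = 3.91e-05).

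On day 9, in IMR-90 cells with DMSO, 9 of the 10 genes were lower with doxorubicin and again PRPS1 was not called. Over all 19056 genes 26.2% were called lower and 28.3% higher, with a median log2 fold change of -1.47 over the 10 genes and 0.11 over all. The groups of these 9 did not overlap, beside 30.7% of all genes lower and 31.7% higher without overlap. This experiment shares no library with that of day 7. PAICS was at 109.5, 112 and 120.4 CPM with doxorubicin, against 442, 465 and 422.5 CPM in proliferating cells (-1.95, SE 0.10, adjusted p = 3.93e-07, edgeR). DHODH was at 4.21, 3.06 and 4.68 CPM with doxorubicin, against 15.6, 16.1 and 13.7 CPM in proliferating cells (-1.92, SE 0.26, adjusted p = 0.00012). Neither gene overlapped between the groups. PRPS2 was at 14.6, 21.4 and 15.9 CPM with doxorubicin, against 51.9, 56.5 and 51.9 CPM in proliferating cells (-1.62, SE 0.22, adjusted p = 0.00014).

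PRPS1 was at 63.1, 89.3 and 94.9 CPM with doxorubicin on day 9, against 87.25, 96.0 and 103.5 CPM in proliferating cells, which overlapped (-0.21, SE 0.22, 95% confidence interval -0.69 to 0.27, adjusted p = 0.43, edgeR). The log2 fold change was -1.53 for GART, -1.498 for IMPDH2, -1.44 for CAD, -1.34 for PPAT and -1.14 for UMPS, all called. ADSL was at 9.66, 6.645 and 11.4 CPM with doxorubicin, against 16.2, 15.1 and 20.3 CPM in proliferating cells (-0.89, SE 0.29, adjusted p = 0.025, edgeR), a call lost without the first (adjusted p = 0.054) or second (0.073) doxorubicin library or the third proliferating one (0.081).

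Markers of cell division fell beside the enzymes. MKI67, a marker of cycling cells, had log2 fold changes of -4.45, -9.49 and -3.28 in IMR-90 on day 7, SK-MEL-103 and IMR-90 on day 9, and CDKN1A, an inhibitor of cyclin-dependent kinases, had 2.65, 1.95 and 2.20. All 16 cell cycle genes listed were called lower in each of the 3 comparisons. Their summed level was 246 to 326 CPM with doxorubicin and 3024 to 3634 CPM in proliferating cells in IMR-90 on day 7. It was 207 to 212 CPM with doxorubicin and 1825 to 2902 CPM in proliferating cells in SK-MEL-103. In IMR-90 on day 9 it was 309 to 565 CPM with doxorubicin and 3098 to 3454 CPM in proliferating cells. The 10 summed markers of other cell types were at 47.5 to 57.3 CPM with doxorubicin and 84.4 to 128.1 CPM in proliferating SK-MEL-103. The 7 summed fibroblast markers were at 85.1 to 97.3 CPM with doxorubicin and 15.4 to 33.5 CPM in proliferating SK-MEL-103. Nearly all of this sum came from COL1A1 and LUM, with group means of 4.24 to 53.2 and 17.5 to 51.4 CPM in SK-MEL-103. The other fibroblast markers were at most at 0.993 CPM. In IMR-90 the 7 summed melanocyte markers were at 29.3 to 59.0 CPM with doxorubicin and 17.1 to 27.6 CPM in proliferating cells on day 7, and at 48.1 to 59.9 CPM with doxorubicin and 26.9 to 38.8 CPM in proliferating cells on day 9. Most of that sum was MITF, with group means of 22.7 to 65.3 CPM in IMR-90, while no other melanocyte marker exceeded 4.18 CPM (TYRP1). The part of these differences in the levels of the synthesis genes was not tested. RNA of the mitochondrial genome moved the other way. All its genes together, ribosomal RNAs included, took 4.18 ± 0.655% of counts with doxorubicin and 1.075 ± 0.242% in proliferating IMR-90 on day 7, and 2.57 ± 0.213% with doxorubicin and 0.818 ± 0.110% in proliferating SK-MEL-103.

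Whether the doxorubicin effect differed between the lines was tested in 1 fit of the 36 libraries of day 7. Of the 10 genes, only CAD passed, with 13.0% of 20892 genes called in that direction and 9.33% in the other. The decrease of CAD was smaller in SK-MEL-103 than in IMR-90 by 0.60 on the log2 scale (SE 0.17, 95% confidence interval 0.25 to 0.95, adjusted p = 0.012, edgeR). DHODH (0.81, SE 0.30, adjusted p = 0.054) and IMPDH2 (0.75, SE 0.28, adjusted p = 0.055) lay on the same side and did not pass. PPAT (-0.74, adjusted p = 0.25), PRPS1 (-0.64, adjusted p = 0.29) and PAICS (-0.53, adjusted p = 0.23) lay on the other side, so the larger decreases of PPAT and PAICS and the call of PRPS1 in SK-MEL-103 were not shown to differ from IMR-90. The difference of CAD depends on the scaling: with RLE factors, which move the median over all genes by -0.16 in this contrast, it was 0.44 (adjusted p = 0.076), and with DESeq2 0.44 (adjusted p = 0.067).

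CAD stayed called with any 1 of the 12 libraries of this test left out, while single libraries decided its neighbours DHODH and IMPDH2. DHODH passed without the second doxorubicin library (0.99, adjusted p = 0.027, edgeR) or the second proliferating library (1.015, 0.016) of IMR-90, or the first proliferating library of SK-MEL-103 (0.90, 0.046). IMPDH2 passed without the same IMR-90 libraries (0.90 and 0.98, adjusted p = 0.030 and 0.0087) or the second proliferating library of SK-MEL-103 (0.92, adjusted p = 0.030). With a block for the replicate number over all groups, which called 16.4% of genes higher and 10.9% lower, DHODH (0.85, adjusted p = 0.031) and IMPDH2 (0.79, adjusted p = 0.036) passed beside CAD.

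Proliferating cells of the lines differed in 4 of the 10 genes. PRPS2 was higher in SK-MEL-103, at 91.2 ± 11.1 CPM in SK-MEL-103 and 53.6 ± 13.35 CPM in IMR-90 (log2 difference 0.81, SE 0.15, adjusted p = 5.63e-05, edgeR). DHODH was higher too, at 21.3 ± 1.96 CPM in SK-MEL-103 and 12.9 ± 3.30 CPM in IMR-90 (0.77, SE 0.21, adjusted p = 0.0037). ADSL was lower, at 6.475 ± 0.101 CPM in SK-MEL-103 and 12.5 ± 4.11 CPM in IMR-90 (-0.91, SE 0.28, adjusted p = 0.0071), a call lost without the first IMR-90 library (-0.69, adjusted p = 0.063). CAD was lower, at 151 ± 13.7 CPM in SK-MEL-103 and 198 ± 28.1 CPM in IMR-90 (-0.35, SE 0.12, adjusted p = 0.017). The call of CAD was lost with RLE factors (-0.28, adjusted p = 0.063) with DESeq2 (-0.28, adjusted p = 0.059) and without the first (-0.27, adjusted p = 0.096) or the third (-0.32, 0.054) IMR-90 library or the second SK-MEL-103 library (-0.27, 0.097). IMPDH2 was called higher with RLE factors (0.50, adjusted p = 0.032), with DESeq2 (0.50, adjusted p = 0.028) and without the first IMR-90 library (0.57, adjusted p = 0.038). Over all genes 23.7% were called higher and 28.3% lower, so 2 of 10 in each direction is near the background.

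The siRNAs were compared with the control siRNA in cells that all received doxorubicin. In IMR-90 the member that stood out was PRPS1, with higher means under all 4 siRNAs. It rose with siMFN1+2, to 174, 219.8 and 196 CPM, against 49.2, 101.5 and 49.5 CPM with the control siRNA (log2 fold change 1.56, SE 0.31, 95% confidence interval 0.90 to 2.21, adjusted p = 0.029, edgeR). This is a level 2.945-fold higher, and no siMFN1+2 library overlapped the controls. The share of all genes without overlap is not given for any siRNA comparison in either line, so overlap there describes these libraries only. Over all 19077 genes 0.446% were called higher and 0.566% lower, and PRPS1 was the only member called. The call was lost in a fit of these libraries alone (1.55, adjusted p = 0.16). It was kept when the second control library was left out (1.99, adjusted p = 0.0062) and lost without the first (1.38, 0.16) or the third (1.39, 0.11) control library or the first (1.64, 0.081), second (1.475, 0.076) or the third (1.56, 0.11) siMFN1+2 library.

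The other siRNAs share the same 3 control libraries, so their values are not independent. PRPS1 was at 209, 116 and 161.5 CPM with siMAVS (1.27, SE 0.30, adjusted p = 0.10, edgeR). It was at 123, 185 and 118 CPM with siMFN2 (1.08, SE 0.30, adjusted p = 0.20), and at 113, 167 and 94.7 CPM with siMFN1 (0.90, SE 0.30, adjusted p = 0.18). All siMAVS and siMFN2 libraries were above the highest control, at 101.5 CPM, and 1 siMFN1 library was below it. With siMAVS, PRPS1 passed with DESeq2 (1.26, adjusted p = 0.0080), without the filter on low counts (1.28, adjusted p = 0.044) and without the second control library (1.70, adjusted p = 0.025). With siMFN1 it passed without the second control library (1.33, adjusted p = 0.043).

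Libraries with the same replicate number deviated together in the siMFN1, siMFN2 and siMFN1+2 comparisons of IMR-90, though not for siMAVS. In a fit of the compared libraries with the replicate number as a block, PRPS1 was called higher with siMFN1 (0.95, adjusted p = 0.00083, edgeR), siMFN2 (1.13, adjusted p = 0.00070) and siMFN1+2 (1.63, adjusted p = 0.00030). That fit called 8.34%, 6.74% and 8.67% of all genes higher in these comparisons and 7.78%, 6.17% and 7.98% lower. Within the earlier library numbers the log2 ratio of mean PRPS1 levels was 0.89 with siMFN1, 1.03 with siMFN2 and 1.39 with siMFN1+2, and within the later numbers 0.93, 1.25 and 1.98.

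None of the other 9 genes was called under any siRNA in IMR-90 in the fit without a block. PRPS2, the paralog, averaged 17.2 ± 0.401 CPM with siMFN1+2 and 15.54 ± 1.87 CPM with the control siRNA (0.14, SE 0.17, adjusted p = 0.78, edgeR). CAD was at 102, 91.4 and 84.6 CPM with siMFN1+2, against 66.3, 76.8 and 66.15 CPM with the control siRNA (0.41, SE 0.13, adjusted p = 0.15). These groups did not overlap, and with the block CAD was called (0.41, adjusted p = 0.023). IMPDH2 averaged 154 ± 33.8 CPM with siMFN2 and 119.8 ± 23.7 CPM with the control siRNA (0.35, adjusted p = 0.65), and was called with the block (0.34, adjusted p = 0.032).

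Over the 10 genes the median log2 fold change was 0.13 with siMFN1, 0.27 with siMFN2, 0.25 with siMFN1+2 and 0.36 with siMAVS, against -0.01 to 0.01 over all genes. The estimate was above 0 for 6, 10, 10 and 10 of the 10 genes. The 10 genes were measured in the same libraries, so they are not independent results. All siMAVS libraries carry earlier library numbers. Against the 2 control libraries of that range the log2 ratio with siMAVS ran from -0.06 (ADSL) to 1.11 (PRPS1), with 0.11 for PAICS. Without a block and with the filter on low counts, edgeR called no member with siMFN1, siMFN2 or siMAVS. That fit called 0.404%, 0.0419% and 0.0734% of all genes higher and 0.676%, 0.0419% and 0.131% lower. At an unadjusted p below 0.05 there were 1, 2 and 2 members, beside 2672, 2212 and 2464 of all 19077 genes, and DESeq2 called 0, 0 and 1 member.

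The summed cell cycle genes were at 350 to 590 CPM with siMFN1, 330 to 502 with siMFN2, 305 to 416 with siMFN1+2 and 191 to 404 with siMAVS, against 246 to 326 CPM with the control siRNA. Every siMFN1 and siMFN2 library was above the controls, and none of the 16 genes was called. All genes of the mitochondrial genome together, ribosomal RNAs included, took 0.736 ± 0.360% of counts with siMFN1+2 and 4.18 ± 0.655% with the control siRNA. Its 13 messenger RNAs summed to 3143 to 8209 CPM with siMFN1+2 and 33390 to 42420 CPM with the control siRNA, and 12 of them were called lower. The mitochondrial share of counts was 3.54 ± 0.859% with siMFN1, 2.32 ± 0.944% with siMFN2 and 3.15 ± 0.427% with siMAVS in IMR-90. In SK-MEL-103 it was 1.30 ± 0.195% with siMFN1+2 and 2.57 ± 0.213% with the control siRNA. It was 2.36%, 2.42% and 2.65% with siMFN1, siMFN2 and siMAVS in SK-MEL-103. The part of the cell cycle genes or of the mitochondrial RNA in the PRPS1 result was not tested.

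**Figure D2:**
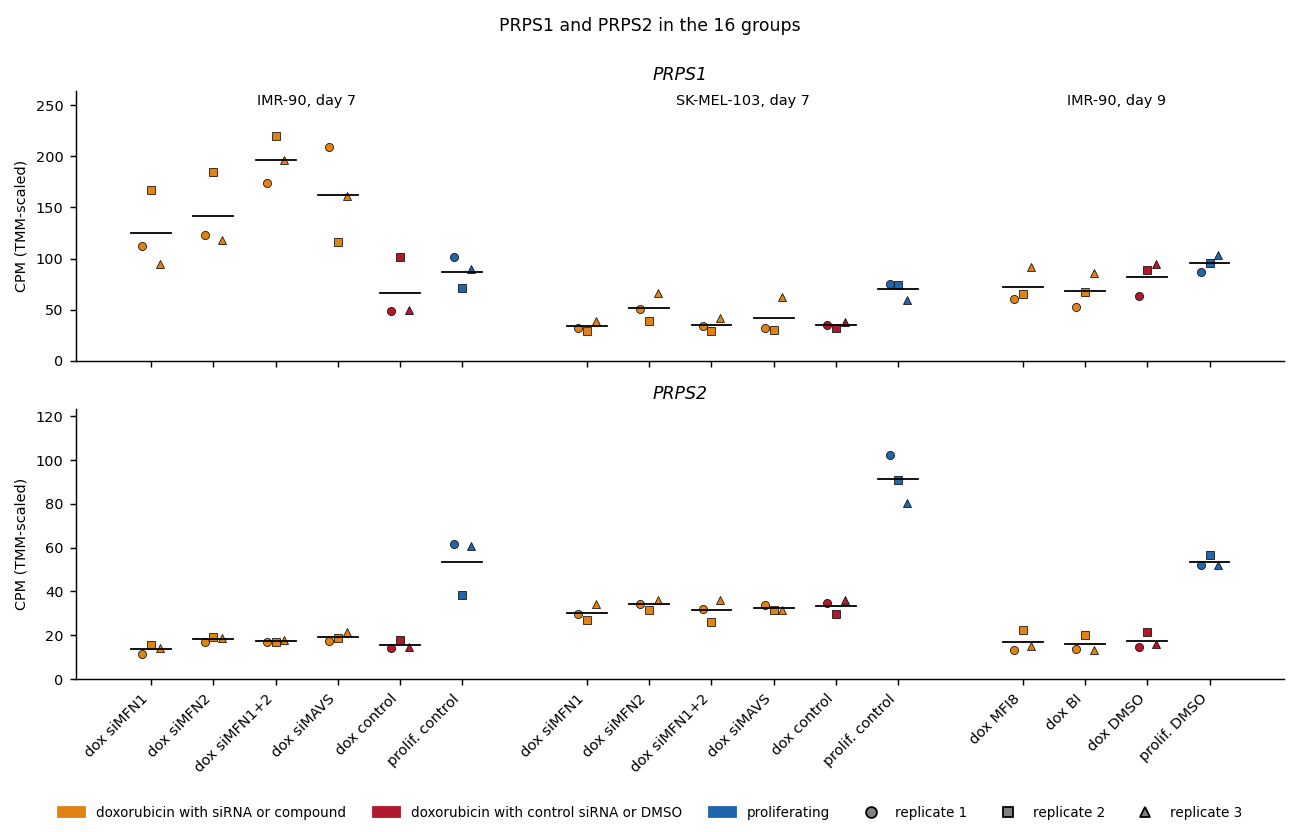
TMM-scaled CPM (vertical axis, linear from 0) of the paralogs PRPS1 (top) and PRPS2 (bottom) in each library of the 16 groups, with doxorubicin plus an siRNA or compound in orange, doxorubicin with the control siRNA or DMSO in red and proliferating cells in blue, lines at the mean of 3 and shapes for replicate numbers. In IMR-90 on day 7 the 4 siRNA groups had PRPS1 means of 125 to 197 CPM, against 66.7 CPM with the control siRNA, while their PRPS2 means were 13.7 to 19.2 CPM, against 15.54 CPM.

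In SK-MEL-103 no member was called under any siRNA in the fit without a block and with the filter on low counts. PRPS1 was at 33.99, 29.5 and 42.0 CPM with siMFN1+2, against 34.98, 32.2 and 38.3 CPM with the control siRNA, and the groups overlapped (0.02, SE 0.25, 95% confidence interval -0.50 to 0.55). For the siMFN1+2 effect on PRPS1, the value in SK-MEL-103 minus the value in IMR-90 was -1.55 (SE 0.41, 95% confidence interval -2.38 to -0.71, adjusted p = 0.17, edgeR), which did not pass the test. It passed with the replicate block over all groups (-1.60, adjusted p = 0.042), which called 0.325% of genes higher and 0.206% lower. It also passed without the filter on low counts (-1.58, adjusted p = 0.022) and without the second IMR-90 control library (-1.98, adjusted p = 0.023). MFN2 itself was lowered less in SK-MEL-103 than in IMR-90 with siMFN1+2 (log2 difference 1.055, adjusted p = 0.0025, edgeR) and with siMFN2 (0.91, adjusted p = 0.020). For MFN1 the difference did not pass with siMFN1+2 (0.82, adjusted p = 0.47) or siMFN1 (1.17, adjusted p = 0.19). The part of weaker silencing in the values of SK-MEL-103 was not tested. In the fit without a block and with the filter, edgeR called no member in the differences of the siRNA effects between the lines. DESeq2 called none either. For siMFN1, siMFN2, siMFN1+2 and siMAVS, 0.0718%, 0.0239%, 0.0862% and 0.0239% of all genes were called higher and 0.0431%, 0.0%, 0.0431% and 0.0% lower, and 2, 0, 2 and 1 members had an unadjusted p below 0.05.

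With siMFN2 in SK-MEL-103, PRPS1 was at 50.6, 39.1 and 66.7 CPM, against 34.98, 32.2 and 38.3 CPM with the control siRNA. The lowest siMFN2 library was just above the highest control (0.58, SE 0.25, adjusted p = 1, edgeR). It was called without the filter on low counts (0.59, adjusted p = 0.0047) and with the replicate block (0.55, adjusted p = 0.00018), a fit that called 3.09% of all genes higher and 3.5% lower. With siMFN1, PPAT was at 8.28, 8.23 and 11.1 CPM with siMFN1, against 13.3, 10.1 and 15.2 CPM with the control siRNA (-0.48, SE 0.23, adjusted p = 0.99), and the groups overlapped. With the replicate block, PPAT (-0.48, adjusted p = 0.0012), PAICS (-0.39, adjusted p = 0.0025) and GART (-0.20, adjusted p = 0.0077) were called lower, in a fit that called 9.77% of all genes lower and 8.64% higher.

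Without the block, the share of genes called in SK-MEL-103 was 0.00557% higher and 0.0836% lower with siMFN1, 0.0% and 0.0167% with siMFN2, 0.0111% and 0.162% with siMFN1+2, and 0.0% and 0.0836% with siMAVS. The 0 members called by edgeR compare with 0, 1, 0 and 0 members at an unadjusted p below 0.05, and DESeq2 called none. The median log2 fold change of the 10 genes was -0.12, 0.05, -0.02 and 0.09 in the same order of siRNAs.

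Without a block, edgeR called none of the 10 genes after either compound given on day 7, MFI8 or BI. That fit called 0 of 19056 genes, 0.0%, in either direction in each comparison. At an unadjusted p below 0.05 there were 303 genes with MFI8 and 127 with BI, none of them a member, and DESeq2 called 1 and 0 genes. The log2 fold changes of the 10 genes ran from -0.18 to 0.17 with MFI8 and from -0.26 to 0.15 with BI. PRPS1 had the lowest value under both. It was at 60.3, 65.1 and 91.7 CPM with MFI8 (-0.18, 95% confidence interval -0.66 to 0.29) and at 52.8, 67.2 and 85.7 CPM with BI (-0.26, -0.74 to 0.21), against 63.1, 89.3 and 94.9 CPM with DMSO. Both share the DMSO libraries. With the replicate block PRPS1 was called lower with BI (-0.28, adjusted p = 0.00066, edgeR), in a fit that called 2.33% of all genes lower and 1.39% higher.

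PAICS averaged 124 ± 11.2 CPM with MFI8, 111 ± 9.90 CPM with BI and 114 ± 5.66 CPM with DMSO. It was the most precisely estimated member, with a 95% confidence interval of -0.09 to 0.33 for MFI8 and -0.25 to 0.18 for BI on the log2 scale. The doses of MFI8 and BI differ, so their values stand side by side only.

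**Figure D3:**
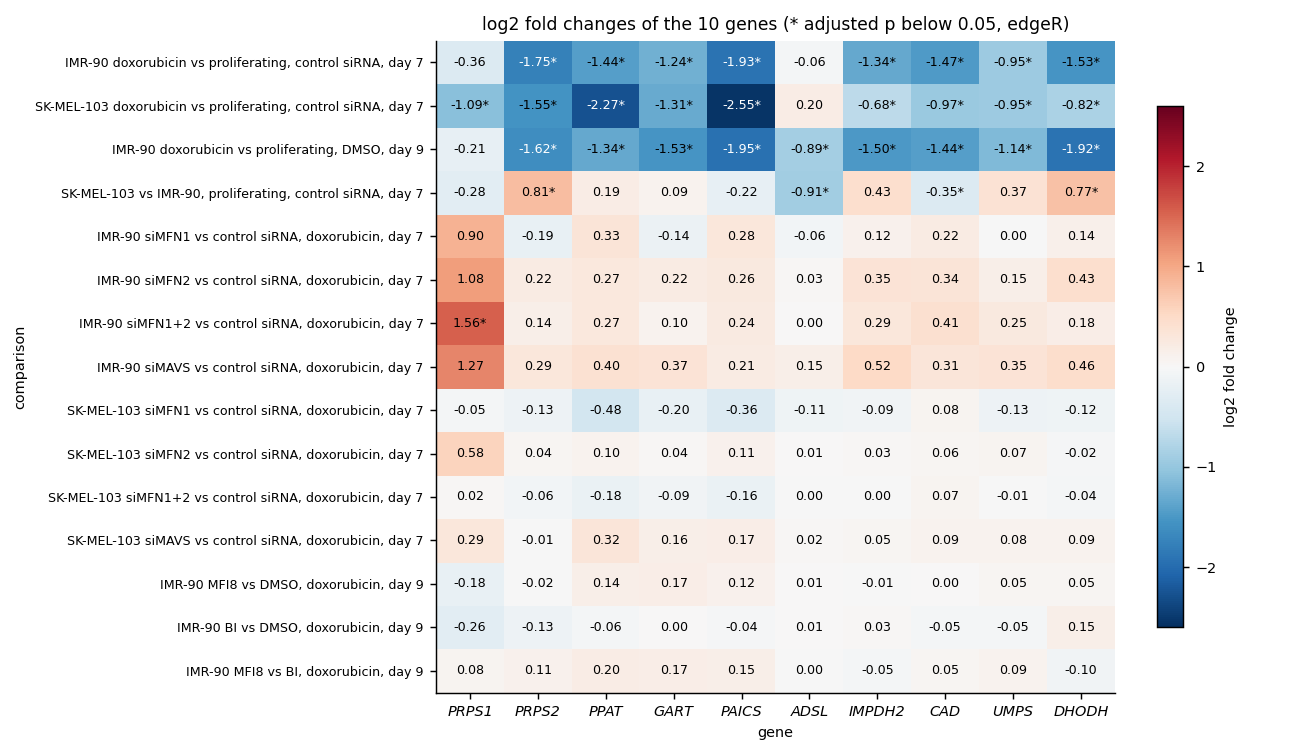
Log2 fold changes (colour and printed value) of the 10 genes (columns) in 15 comparisons (rows), the group named first over the one after it; stars mark an adjusted p below 0.05 by edgeR. The 3 doxorubicin rows hold the decreases, down to -2.55 for PAICS in SK-MEL-103, and PRPS1 with siMFN1+2 in IMR-90 (1.56) is the one star among the siRNA and compound rows.

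How far the 10 genes moved together was described over the 16 group means, which share control groups and mix 2 lines. PPAT and PAICS, the head-to-head pair, had a Pearson r of 0.99 on log2 CPM, as had IMPDH2 and DHODH. PRPS2 went with UMPS (0.97) and IMPDH2 (0.95), and GART with CAD (0.96). PRPS1 had a negative r with PRPS2 (-0.33), IMPDH2 (-0.42) and DHODH (-0.50). Within each doxorubicin comparison the fold changes of all these genes were negative, though PRPS1 was called only in SK-MEL-103. The lines differed in level: with doxorubicin and the control siRNA, PRPS1 averaged 35.1 CPM in SK-MEL-103 and 66.7 CPM in IMR-90. Means were higher in SK-MEL-103 for PRPS2 (33.35 and 15.54 CPM), IMPDH2 (271 and 119.8) and DHODH (12.9 and 4.34). Among 10920 other genes whose log2 CPM averaged 2 or more, the pattern most like PPAT was that of CDC25A, a phosphatase that activates cyclin-dependent kinases (0.99), with PAICS next. The nearest to PAICS were PTTG1, or securin, and the kinase gene MELK (both above 0.99). The nearest to CAD was the lamin gene LMNB2 (0.99), the nearest to IMPDH2 was EIF2B5, a subunit of a translation initiation factor (0.99), and the nearest to GART was CCT2 of the cytosolic chaperonin (0.99). PRPS1 and ADSL had no neighbour as close: the highest r was 0.96 for PRPS1, with the DNA ligation factor gene XRCC4, and 0.94 for ADSL, with TMOD3.

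Genes of neighbouring routes gave the setting for the 10. Among 13 other purine genes, 6 were called lower and 3 higher with doxorubicin in IMR-90 on day 7 (median -0.40). In SK-MEL-103 8 of 12 tested were lower and 1 higher (-0.51), and in IMR-90 on day 9 8 of 13 were lower and 3 higher (-0.50). PFAS, which catalyses the ring step between those of GART, averaged 19.5 ± 4.003 CPM with doxorubicin and 107 ± 15.2 CPM in proliferating IMR-90 on day 7 (-2.42, adjusted p = 9.17e-07, edgeR). In SK-MEL-103 it averaged 44.35 ± 2.95 CPM with doxorubicin and 114.5 ± 3.96 CPM in proliferating cells (-1.47, adjusted p = 1.40e-08). Its decrease was smaller in SK-MEL-103 by 1.05 on the log2 scale (SE 0.24, adjusted p = 0.0023). GMPS, which makes guanosine monophosphate after IMPDH2, had log2 fold changes of -1.87, -1.64 and -1.63 in IMR-90 on day 7, SK-MEL-103 and IMR-90 on day 9. The adenylate kinase AK1 was called higher in all 3 (0.91, 0.75 and 0.97). ADSS1 was called higher in IMR-90 on day 7 (2.45) and on day 9 (2.47), from a level near 1 CPM in proliferating cells.

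CTPS1, which makes cytidine triphosphate from the uridine product of the UMPS branch, fell to 91.9 ± 22.6 CPM with doxorubicin in IMR-90 on day 7, against 177.5 ± 29.1 CPM in proliferating cells (-0.92, adjusted p = 0.0037, edgeR). In SK-MEL-103 it was at 23.4 ± 0.239 CPM with doxorubicin and 104 ± 19.4 CPM in proliferating cells (-2.25, adjusted p = 8.98e-10). Here the difference between the lines passed, with the larger decrease in SK-MEL-103 (-1.24, SE 0.27, adjusted p = 0.0013). Of the 6 genes in this list, 3 of 6, 4 of 5 and 3 of 6 were called lower in IMR-90 on day 7, SK-MEL-103 and IMR-90 on day 9. CMPK2 was called higher in IMR-90 on day 9 (3.40, adjusted p = 0.0064, edgeR). It was low, at 1.56 ± 1.17 CPM with doxorubicin and 0.143 ± 0.0958 CPM in proliferating cells.

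Of 10 genes of deoxynucleotide supply, 8, 9 and 7 were called lower in the 3 comparisons, with medians of -1.97, -1.86 and -1.99. RRM2, the ribonucleotide reductase subunit of S phase, was at 24.75 ± 12.8 CPM with doxorubicin and 428 ± 29.0 CPM in proliferating IMR-90 on day 7 (-4.08, adjusted p = 1.81e-05, edgeR). In SK-MEL-103 it was at 0.972 ± 0.461 CPM with doxorubicin and 343.5 ± 119 CPM in proliferating cells (-8.62, adjusted p = 1.22e-07). RRM2B, the subunit induced by p53, was the one gene of the list called higher in each comparison (1.56, 0.96 and 1.29).

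Of 12 genes of one-carbon and serine metabolism, which provide formyl groups and glycine for the purine ring, 8, 9 and 8 were called lower and 0, 2 and 1 higher, with medians of -0.72, -1.29 and -1.18. PHGDH, which opens serine synthesis, had log2 fold changes of -2.73, -3.66 and -2.45. Of 7 genes of the pentose phosphate pathway, the source of ribose phosphate for PRPP, 6, 5 and 5 were lower and 0, 1 and 0 higher. TKT, transketolase, averaged 277 ± 25.1 CPM with doxorubicin and 665.5 ± 111.5 CPM in proliferating IMR-90 on day 7 (-1.23, adjusted p = 0.00010, edgeR).

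Among 12 salvage genes, which reuse bases and nucleosides, the number called lower was 5, 7 and 9. The 1 called higher in each comparison was TK2, the mitochondrial thymidine kinase (0.87, 1.63 and 1.21). The cytosolic kinase of S phase, TK1, had log2 fold changes of -4.10, -7.58 and -2.696. Breakdown was the one of these 7 lists whose median lay above 0, at 0.35, 0.28 and 0.45, with 5 of 12, 3 of 11 and 4 of 12 called higher and 3 in each called lower. Over all genes 25.9%, 29.4% and 28.3% were called higher and 23.6%, 29.9% and 26.2% lower, so these counts are near the background. AMPD3, which deaminates adenosine monophosphate, averaged 108 ± 20.1 CPM with doxorubicin and 15.1 ± 1.47 CPM in proliferating IMR-90 on day 7 (2.87, adjusted p = 1.68e-07, edgeR).

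**Figure D4:**
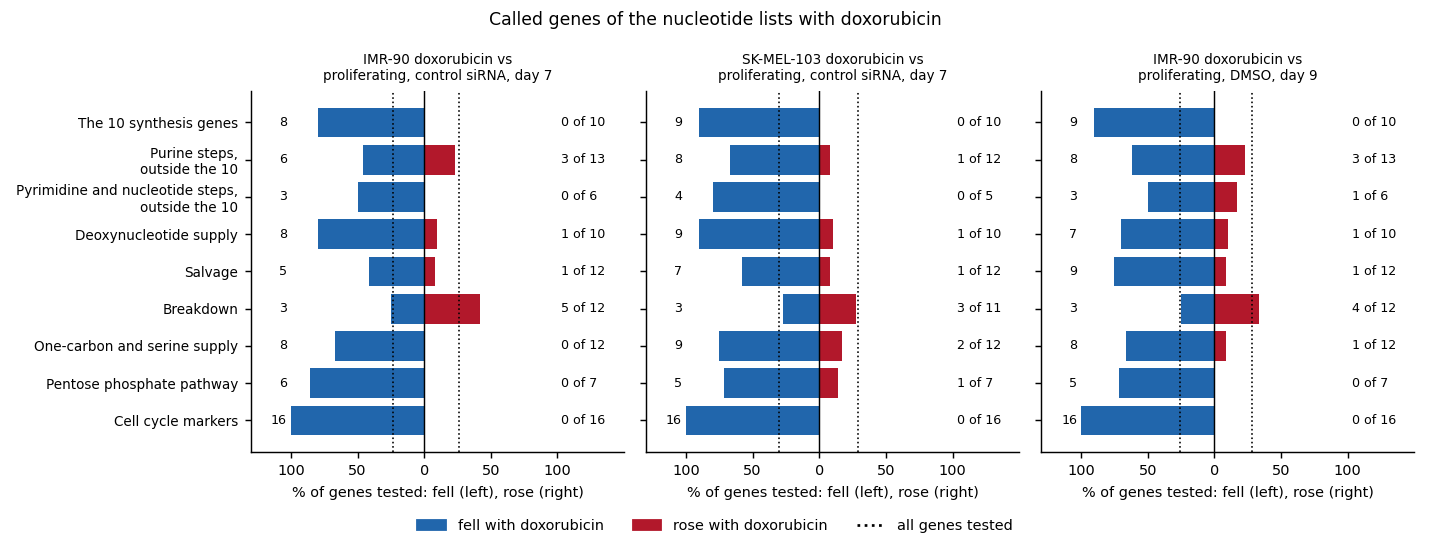
Percentage of the tested genes of each list called lower (blue, left) and higher (red, right) with doxorubicin over proliferating cells, with the counts printed beside the bars; dotted lines give the percentages over all genes tested. The 10 synthesis genes (8, 9 and 9 lower) stand between the 16 cell cycle genes, all lower, and the breakdown list, the only one with more genes higher than lower in IMR-90.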

How the data were processed

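Messenger RNA was sequenced from 48 libraries, made with a stranded kit per the labels. Reads were trimmed with Trim Galore 0.6.7, aligned to GRCh38 with STAR 2.7.10a and counted per gene with featureCounts, per the submitters' processing notes. The deposited counts are whole numbers for 48898 Ensembl genes, not normalized by the authors. Whether counting used strand is not given in the sources used here. Of the genes, 48679 had a symbol, and 0.122% of counts lay in genes without one.

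Counts were tested with edgeR 4.0.16 in R 4.3.3 (TMM factors, filterByExpr, quasi-likelihood test) in fits of 18 siRNA libraries per line, 12 compound libraries or, for differences between lines, 36 libraries, with Benjamini-Hochberg adjustment over all genes tested and calls at 0.05. DESeq2 1.42.0 was an alternative. The pipeline was tested on simulated counts. Replicate pairs differed by 10 to 233 times the counting variance (chi-square per degree of freedom, 48 pairs), so none was a copy. Depth limits precision most in the libraries numbered 3.

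Same-numbered libraries deviated together (every correlation above 0.1) in the siMFN1, siMFN2 and siMFN1+2 comparisons of IMR-90, the 4 siRNA comparisons of SK-MEL-103 and the compound comparisons, and not in the doxorubicin comparisons or siMAVS in IMR-90. The pairing comes from this check, since the labels do not say what a number marks. One SK-MEL-103 siMFN2 library carries no number and was taken as replicate 1.

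The members and the lists were chosen with earlier results of these data known. Other genes named came from the 2 highest and 2 lowest called fold changes of each list and comparison, or from the 3 highest Pearson r over the 16 group means. Alternatives were other size factors, DESeq2, no filter, other sets of libraries, replicate blocks and leaving out each library (84 fits). Ratios within ranges of library numbers were added after seeing the data.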

Additional observations from a re-analysis of the deposited data

Results flagged for a closer look

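The doxorubicin effect on CAD, the enzyme that opens pyrimidine synthesis, differed between the lines by a test of the difference itself. The value for SK-MEL-103 minus IMR-90 was 0.60 on the log2 scale (SE 0.17, adjusted p = 0.012, edgeR), and CAD was lower with doxorubicin in both lines (-0.97 in SK-MEL-103 and -1.47 in IMR-90). Of the 10 genes it was the 1 called, beside 13.0% of all genes called in that direction. The call was lost with RLE factors (0.44, adjusted p = 0.076, edgeR) and with DESeq2 (0.44, adjusted p = 0.067).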

How the results depend on the processing

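For results called among the 10 genes (32), 26 of 389 alternatives ended the call, 18 of them among 198 that left out a library, and 0 reversed a direction. For results not called (168), 30 of 2241 alternatives gave a call, 12 of them in a replicate block. The number of members called depended on the setting as follows. With the replicate number as a block and only the compared libraries, it was 1 for siMFN1, 2 for siMFN2 and 2 for siMFN1+2 in IMR-90, 3 for siMFN1 and 1 for siMFN2 in SK-MEL-103, and 1 for BI. With the block over all groups it was 3 for the doxorubicin effect between lines and 1 for the siMFN1+2 effect between lines. In the paired comparisons the block changed no other call. In IMR-90 on day 7, where numbers did not pair the libraries, the same block ended the calls of GART (adjusted p = 0.067) and UMPS (0.11) with doxorubicin. Without a filter on low counts the number was 1 for siMAVS in IMR-90, 1 for siMFN2 in SK-MEL-103, 2 for the doxorubicin effect between lines and 1 for the siMFN1+2 effect between lines, and CAD lost its call between proliferating lines (-0.38, adjusted p = 0.055). With DESeq2 it was 1 for siMAVS in IMR-90 and 0 for the doxorubicin effect between lines, which was also 0 with RLE factors. With only the compared libraries it was 0 for siMFN1+2 in IMR-90. The cause was not tested.

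With 1 library left out, the number called ran from 6 to 9 with doxorubicin in IMR-90 on day 7, from 8 to 9 on day 9 and stayed at 9 in SK-MEL-103. It ran from 0 to 1 for siMFN1, siMFN1+2 and siMAVS in IMR-90, from 1 to 3 for the doxorubicin effect between lines, from 0 to 1 for the siMFN1+2 effect between lines and from 3 to 4 between proliferating lines. Libraries numbered 3 had the fewest counts, and counts of DHODH went down to 50.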

Other observations

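Of 12 breakdown genes, AMPD3 and NT5E were lower under siRNAs in IMR-90 with doxorubicin. AMPD3, which deaminates adenosine monophosphate, averaged 45.35 ± 12.02 CPM with siMFN1, 43.0 ± 8.37 with siMFN2, 41.7 ± 4.12 with siMFN1+2 and 39.3 ± 5.75 with siMAVS, against 108 ± 20.1 CPM with the control siRNA (SD, n = 3 each). Its log2 fold changes were -1.26, -1.34, -1.38 and -1.475 (adjusted p = 0.011, 0.025, 0.0046 and 0.0054, edgeR). NT5E, the ecto-enzyme CD73 that turns adenosine monophosphate into adenosine, averaged 654 ± 63.5 CPM with siMFN1, 672 ± 88.4 with siMFN1+2 and 535 ± 32.4 with siMAVS, against 1431 ± 273 CPM with the control siRNA. Its log2 fold changes were -1.13, -1.09 and -1.435 (adjusted p = 0.011, 0.011 and 0.0032). All these comparisons share the same 3 control libraries.

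In SK-MEL-103, SAMHD1, which hydrolyses deoxynucleotides, averaged 36.1 ± 1.90 CPM with siMFN1+2 and 36.02 ± 1.56 CPM with siMAVS, against 51.6 ± 2.41 CPM with the control siRNA (-0.49 and -0.48, adjusted p = 0.015 and 0.032, edgeR). No other gene of the 7 nucleotide lists was called by edgeR under an siRNA in either line in the fits without a block.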
